A study of Mus musculus with 16 samples.

Results

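The glycolytic enzymes described here are 10 genes of glucose breakdown: Hk2, Gpi1, Pfkl, Aldoa, Tpi1, Gapdh, Pgk1, Pgam1, Pkm and Ldha. They were taken by gene symbol from a table of raw counts that lists 24421 genes. All 10 had a row, and all 10 were among the 11978 genes kept by a filter on low counts. RNA was sequenced in bulk from type 1 conventional dendritic cells (cDC1s), the dendritic cells that specialise in showing antigen to CD8 T cells. Between 5000 and 50000 cells per sample had been sorted from the spleens of C57BL6 mice at steady state, that is, without infection or treatment. The 16 libraries formed 4 groups of 4: mature cDC1s of Xbp1flIre1fl mice, mature cDC1s of Xbp1fl mice, immature cDC1s of Xbp1flIre1fl mice and immature cDC1s of Xbp1fl mice. All 4 groups carry loxP-flanked alleles of Xbp1, a transcription factor gene of the unfolded protein response. The Xbp1flIre1fl mice also carry loxP-flanked alleles of the gene for IRE1, the sensor that activates XBP1. Per the labels none of these alleles was deleted, and both genotypes count as functionally wild type. Ages, sexes and sort gates are not in the labels. The labels also do not say that replicates came from separate mice, so a p-value here rests on the scatter of these libraries, which may be technical.

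Glycolysis splits glucose into pyruvate in the cytosol. The first enzymes phosphorylate the sugar and split it into triose phosphates, the later ones harvest ATP and NADH, and lactate dehydrogenase then regenerates NAD by reducing pyruvate to lactate. Dendritic cells that are activated by microbial products are known for raising glycolytic flux, and flux is set in large part by hexokinase, phosphofructokinase and the allosteric activator that PFKFB enzymes make. Transcript levels, the only quantity measured here, are not flux.

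Libraries held 13948232 to 17000763 counts. Levels are given as CPM, a gene's counts scaled to a common library total after TMM scaling, which corrects libraries for the weight of a few very abundant genes. The mature libraries had TMM factors of 0.886 to 1.00 and the immature ones of 1.06 to 1.118. Ccr7, the chemokine receptor gene that marks mature dendritic cells, lay at 4988 to 13420 CPM in mature libraries and 107 to 320 CPM in immature ones, so each library matched its stage label. All 10 cDC1 markers were detected in every library, with a summed level of 5110 to 6828 CPM in mature libraries and 6606 to 7655 CPM in immature ones. Of these markers 3 were called higher and 4 lower in mature cells, beside 33.4% and 34.2% of all genes tested. Summed B cell markers reached 309.9 to 1068 CPM in mature libraries and 104 to 163 CPM in immature ones, and all 10 of them passed the test as higher. Ms4a1 was the most abundant of these, as Irf8 was of the cDC1 markers. For macrophages the sums were 567 to 1177 CPM in mature libraries and 151 to 632 CPM in immature ones, with 8 of 11 markers higher and Vcam1 the most abundant. Within Xbp1flIre1fl 10 of the 11 were higher and within Xbp1fl 3, beside 27.4% and 28.4% of all genes. None of the 11 passed the test for a difference between genotypes in this change. Sums for T cells, with 5 of 8 markers higher, were 53.2 to 96.2 CPM in mature libraries and 32.1 to 52.7 CPM in immature ones, led by Cd4. Neutrophil markers summed to at most 44.8 CPM and erythroid markers to at most 27.6 CPM in any library, with Mpo and Alas2 the most abundant, and the globin genes Hba-a1, Hba-a2 and Hbb-bt had no count. B cells and macrophages also express glycolytic enzymes, and the part of these cells in the values below was not tested. In bulk RNA, fewer cells of a type and less RNA per cell cannot be told apart.

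Per length of transcript, the glycolytic enzymes spanned a wide range, with the hexokinase and phosphofructokinase transcripts lowest. In mature libraries Gapdh, Ldha, Pkm and Aldoa led, at means of 362 ± 14.7, 346 ± 55.2, 289 ± 11.8 and 265 ± 16.7 CPM per kilobase (SD, n = 8). In immature libraries Ldha led at 582 ± 14.1 CPM per kilobase, ahead of Gapdh at 382 ± 14.4 and Pkm at 289 ± 8.52 (SD, n = 8). The lowest Ldha library of the immature stage, at 561 CPM per kilobase, lay above the highest Gapdh library, at 411. In the mature stage the ranges of Ldha, 266 to 432, and Gapdh, 333 to 382, overlapped, so their order there is within the spread. Aldoa stood above Pgam1 in mature libraries, at 240 to 290 against 130 to 166 CPM per kilobase, and below it in immature libraries, at 155 to 172 against 174 to 197. Tpi1, Pfkl and Hk2 were the 3 lowest in both stages, with Hk2 at 4.62 ± 0.944 CPM per kilobase in mature libraries and 7.81 ± 0.759 in immature ones.

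Some of these levels are uncertain because the genes have near-identical copies. Stretches of at least 200 bases with at least 95% identity to other annotated transcripts covered 88.0% of the Gapdh transcript, 68.8% of Pgk1, 65.5% of Pkm, 56.6% of Ldha, 50.2% of Gpi1, 43.1% of Pgam1 and 19.3% of Tpi1. For Hk2, Pfkl and Aldoa there were none. How reads shared between copies were counted is not given in the sources used here. The library strand is not given either: Spsb2, which overlaps Tpi1 on the other strand, had 900 counts in mature libraries and 924 in immature ones, Iffo1, opposite Gapdh, had 1913 in mature and 1842 in immature libraries, and Fam57b, opposite Aldoa, had 1 in mature and 0 in immature libraries. The annotation also holds a second gene named Aldoa next to the first (chromosome 7, 126800790 to 126809108), and the count table gives only the symbol.

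The comparison of mature with immature cells asks how transcripts of the pathway differ after maturation at steady state. The enzymes did not move as a block. Aldoa was higher in mature cells, 6 enzymes were lower, and Gapdh, Pgk1 and Pkm did not pass the test. The largest falls were at the 2 ends of the pathway, in Hk2 and Ldha, at 1.69-fold and 1.68-fold, and in Tpi1, at 1.5-fold. Over all 11978 genes tested, 67.6% were called between the stages at an adjusted p under 0.05 by edgeR, 33.4% higher and 34.2% lower, so that a call by itself is common in these data. The median log2 fold change was -0.27 over the 10 enzymes and -0.0095 over all genes. Mature and immature libraries did not overlap for Aldoa, which was higher, and for Hk2, Gpi1, Tpi1, Pgam1 and Ldha, which were lower. Over all genes this held for 33% of genes, 18% upward and 15% downward.

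**Figure D1:**
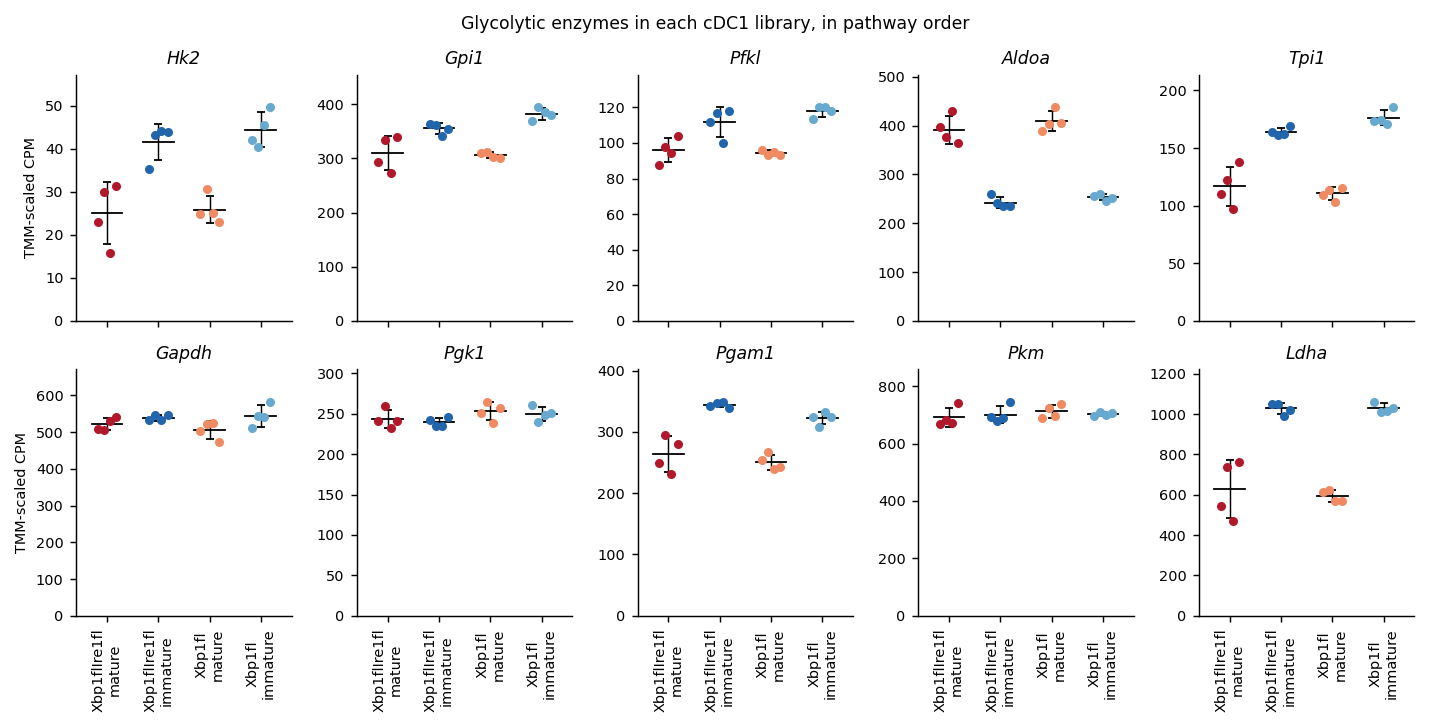
Level of each glycolytic enzyme in every library, in TMM-scaled CPM (vertical axis, from 0), for mature and immature cDC1s of Xbp1flIre1fl and Xbp1fl mice; points are libraries, and bars mark the mean and SD of 4 libraries. Aldoa lies at 363 to 439 CPM in mature libraries and 235 to 259.8 CPM in immature ones, Ldha at 469 to 762 and 991 to 1062, and the stages overlap for Pfkl, Gapdh, Pgk1 and Pkm.

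Hexokinase 2, encoded by Hk2 (chromosome 6, 82725025 to 82774454), traps glucose in the cell as glucose 6-phosphate and is the inducible hexokinase. In mature libraries Hk2 lay at 22.9, 30.0, 15.7 and 31.5 CPM in Xbp1flIre1fl and at 24.9, 30.6, 25.0 and 23.1 CPM in Xbp1fl (replicates 1 to 4). Immature libraries held 35.3, 43.2, 44.1 and 44.0 CPM in Xbp1flIre1fl and 42.1, 40.5, 45.6 and 49.8 CPM in Xbp1fl. Every mature library was below every immature one, with mature Xbp1flIre1fl replicate 3 the lowest of all. The log2 fold change was -0.76 ± 0.11 (SE; edgeR adjusted p = 1.59e-05). Hk2 had 204 to 926 counts per library, the fewest of the 10.

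Glucose 6-phosphate isomerase, from Gpi1 (chromosome 7, 34201330 to 34230336), converts glucose 6-phosphate to fructose 6-phosphate. It was at 273 to 339 CPM in mature libraries (median 306) and at 342 to 395 CPM in immature ones (median 366), close but without overlap. Its log2 fold change was -0.26 ± 0.047 (edgeR adjusted p = 8.93e-05). Pfkl (chromosome 10, 77986947 to 78010083) encodes the liver-type subunit of phosphofructokinase, which commits the sugar to glycolysis. Pfkl lay at 87.5 to 104 CPM in mature (median 94.7) and at 100.2 to 120.4 CPM in immature libraries (median 117.5). The overlap came from mature Xbp1flIre1fl replicate 4, at 104 CPM, and immature Xbp1flIre1fl replicate 3, at 100.2 CPM, and Pfkl fell by 0.27 ± 0.045 on the log2 scale (edgeR adjusted p = 4.24e-05).

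Aldolase A, from Aldoa (chromosome 7, 126795234 to 126800751), splits fructose 1,6-bisphosphate into 2 triose phosphates and also binds actin filaments. In mature libraries Aldoa lay at 396, 376, 429.5 and 363 CPM in Xbp1flIre1fl and at 389, 403, 439 and 405 CPM in Xbp1fl. In immature libraries it lay at 259, 241, 235 and 235 CPM in Xbp1flIre1fl and at 257, 259.8, 245 and 252 CPM in Xbp1fl. The 8 mature libraries thus all lay above the 8 immature ones. Aldoa rose 1.61-fold (log2 fold change 0.69 ± 0.045, edgeR adjusted p = 4.47e-10), the one enzyme of the 10 called higher.

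Triose phosphate isomerase, from Tpi1 (chromosome 6, 124810586 to 124814296), acts directly after aldolase and interconverts its 2 products. Mature libraries held 110.2, 122, 97.2 and 138 CPM of Tpi1 in Xbp1flIre1fl and 109.7, 114, 103 and 116 CPM in Xbp1fl. Immature libraries held 164, 162, 163 and 169 CPM in Xbp1flIre1fl and 174, 174, 171 and 186 CPM in Xbp1fl. All mature libraries were below all immature ones, and the log2 fold change was -0.58 ± 0.057 (edgeR adjusted p = 8.58e-08). The steps of Aldoa and Tpi1 follow each other, and their transcripts went opposite ways. Within a library, where scaling plays no part, the ratio of Aldoa to Tpi1 counts was 2.64 to 4.42 in mature libraries and 1.36 to 1.58 in immature ones (median 3.54 and 1.46). This ratio was chosen with the opposite directions known and is given without a test.

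The middle of the pathway held the 3 enzymes without a call. Gapdh (chromosome 6, 125161715 to 125166467), whose product oxidises glyceraldehyde 3-phosphate, was at 473 to 542 CPM in mature libraries and 511 to 583 CPM in immature ones (log2 fold change -0.076 ± 0.041, edgeR adjusted p = 0.112). Pgk1 (chromosome X, 106187100 to 106203699), for the kinase of the first ATP-yielding step, was at 233 to 265 CPM in mature libraries and 234 to 260.3 CPM in immature ones (0.023 ± 0.039, edgeR adjusted p = 0.623). Pkm (chromosome 9, 59656368 to 59679375), for pyruvate kinase, was at 669.6 to 740.0 CPM in mature libraries and 677 to 746 CPM in immature ones (-0.00053 ± 0.041, edgeR adjusted p = 0.992). For all 3 the stages overlapped widely. Gene counts do not separate the M1 and M2 splice forms of Pkm, whose balance is known to matter for pyruvate kinase activity.

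Phosphoglycerate mutase 1, from Pgam1 (chromosome 19, 41911923 to 41918660), moves the phosphate group before the enolase step. Pgam1 lay at 249.8, 295, 231 and 280.4 CPM in mature Xbp1flIre1fl and at 254, 266, 239 and 242 CPM in mature Xbp1fl libraries. The immature values were 342, 347, 349 and 339.6 CPM in Xbp1flIre1fl and 325, 308, 332 and 324 CPM in Xbp1fl. No mature library reached the lowest immature one, and Pgam1 fell 1.30-fold (log2 fold change -0.37 ± 0.050, edgeR adjusted p = 3.14e-06).

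Lactate dehydrogenase A, from Ldha (chromosome 7, 46841475 to 46855627), reduces pyruvate to lactate. In mature libraries Ldha lay at 546, 736, 469 and 762 CPM in Xbp1flIre1fl and at 616, 625, 570.4 and 567 CPM in Xbp1fl. The immature libraries were tight, at 1051, 1051, 991 and 1019 CPM in Xbp1flIre1fl and 1062, 1008, 1014 and 1032 CPM in Xbp1fl. All mature libraries were below all immature ones, and the mature Xbp1flIre1fl libraries were the most scattered group. The log2 fold change was -0.75 ± 0.080 (edgeR adjusted p = 2.14e-07).

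Together the 10 enzymes held 0.272% to 0.354% of all counts in mature libraries and 0.395% to 0.426% in immature libraries, without overlap (means 0.303% ± 0.0256 in mature and 0.410% ± 0.0106 in immature libraries, SD, n = 8 each). This share is of unscaled counts and so also carries the difference in TMM factors between the stages. The summed TMM-scaled level was 3046 to 3541 CPM in mature libraries and 3678 to 3880 CPM in immature ones, again without overlap. The immature mean was 1.159-fold the mature one on that scale and 1.352-fold as a share. Within that pool the makeup shifted. Ldha made up 18.6% ± 2.06 of the enzymes' counts in mature libraries and 27.1% ± 0.593 in immature ones. Aldoa made up 12.3% ± 1.27 in mature libraries and 6.53% ± 0.247 in immature ones. Pkm made up 21.4% ± 0.893 of the counts in mature libraries and 18.5% ± 0.504 in immature ones, and had the largest mean of the mature pool, while Ldha had the largest of the immature pool. In mature Xbp1flIre1fl replicates 2 and 4, however, Ldha had more counts than Pkm. These shares are of counts and so weigh long transcripts more, and they are given without a test.

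The calls for the enzymes depend on library scaling in 3 of 10 cases. Upper quartile scaling moved the median log2 fold change of all genes to -0.13, and scaling by library size alone moved it to -0.23. With upper quartile scaling Gapdh, Pgk1 and Pkm were called lower, at -0.197, -0.098 and -0.121 (edgeR adjusted p = 0.000521, 0.0455 and 0.0195), and with library sizes alone at -0.301, -0.20 and -0.224. Each scaling then gave 9 enzymes lower and Aldoa higher, at 0.57 and 0.46. Relative to the median of all genes the values barely moved: Ldha was at -0.741 with TMM, -0.739 with upper quartile scaling and -0.736 with library sizes alone, Aldoa at 0.70, 0.699 and 0.697, and Pgk1 at 0.0322, 0.0323 and 0.0319.

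**Figure D2:**
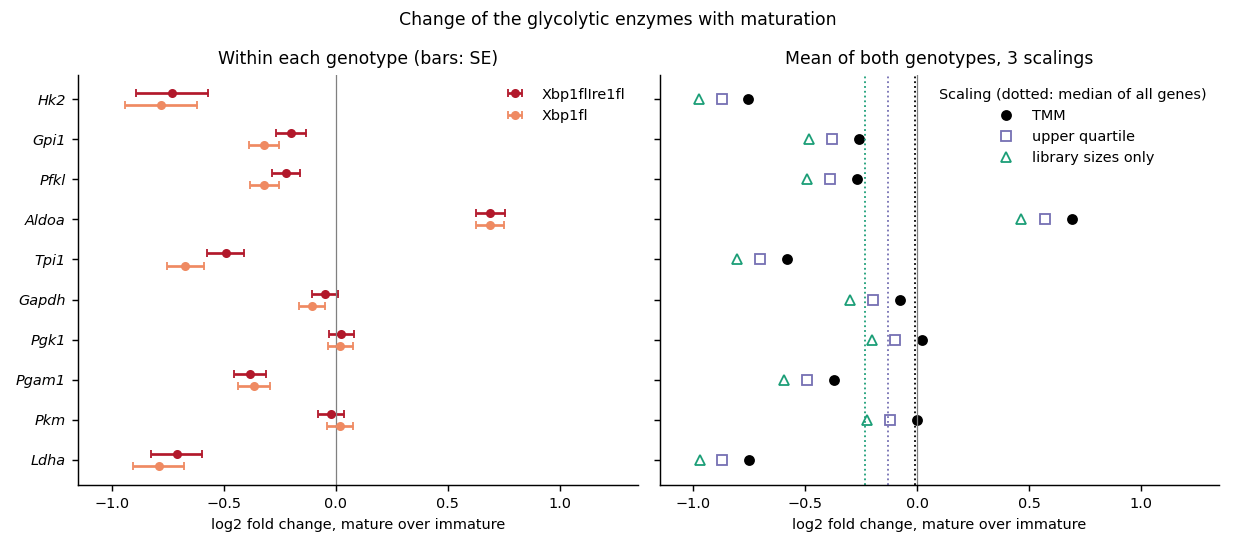
Log2 fold change of mature over immature cDC1s (horizontal axis) for the enzymes in pathway order from top to bottom; left, within Xbp1flIre1fl and within Xbp1fl with SE bars; right, the mean of both genotypes under 3 library scalings, with the median of all genes dotted. Aldoa alone lies to the right of 0 under each scaling, and Gapdh, Pgk1 and Pkm move with the median of all genes.

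Both genotypes gave the same picture. Within Xbp1flIre1fl and within Xbp1fl the test called Aldoa higher and the same 6 enzymes lower. Of all genes 53.5% were called within Xbp1flIre1fl (27.4% higher, 26.1% lower) and 56.8% within Xbp1fl (28.4% higher, 28.3% lower). Aldoa changed by 0.69 ± 0.064 on the log2 scale in each genotype. Ldha changed by -0.71 ± 0.11 within Xbp1flIre1fl and by -0.79 ± 0.11 within Xbp1fl, and Hk2 by -0.73 ± 0.16 within Xbp1flIre1fl and -0.78 ± 0.16 within Xbp1fl. The widest gap was in Tpi1, at -0.49 ± 0.081 within Xbp1flIre1fl and -0.67 ± 0.081 within Xbp1fl, a difference of 0.18 ± 0.11 (unadjusted p = 0.135 from the edgeR interaction test). No enzyme passed the interaction test (0 of 10, and 0% of all genes, by edgeR). None of the 10 had an unadjusted p under 0.05, against 329 of all genes, and DESeq2 called 0 genes. Gpi1 within Xbp1flIre1fl was the weakest of the called values, at -0.20 ± 0.066 (edgeR adjusted p = 0.0174), and lost its call without mature Xbp1flIre1fl replicate 1 (0.0584) or replicate 3 (0.0605).

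The genotypes themselves were also compared within each stage. In mature cells 0 of 10 enzymes differed between Xbp1flIre1fl and Xbp1fl (edgeR, with 0.142% of all genes called, 0.0501% higher and 0.0918% lower), and the largest log2 difference was 0.0801 in size, in Ldha. In immature cells 0 of 10 differed (0.134% of all genes called, 0.0584% higher and 0.0751% lower), with the largest difference in Gpi1, at -0.11 ± 0.066 (unadjusted p = 0.128, edgeR). No enzyme had an unadjusted p under 0.05 in either stage, where 754 and 573 of all genes did, and DESeq2 called 36 and 40 genes, none of them an enzyme of the 10. For Ldha in mature cells the difference was 0.080 ± 0.11, and for Hk2 -0.047 ± 0.16, so that these 2 are known less precisely than Pkm, at -0.042 ± 0.057.

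Within groups the lower enzymes varied together. Over the 15 pairs of the 6 enzymes called lower, Pearson's r of the deviations from the group means, over 16 libraries, ranged from 0.271 to 0.927 with a median of 0.791. It was highest for Gpi1 with Ldha, at 0.927, and for Pgam1 with Ldha, at 0.903. Aldoa ran the other way with all 6, from -0.264 with Pfkl to -0.792 with Hk2. For Gapdh, r ranged from -0.366 with Pgk1 to 0.377 with Pfkl, and was 0.0583 with Ldha and 0.0166 with Aldoa. Pgk1 and Pkm, which were not called, also ran with the 6 lower enzymes. Their r with these ranged from 0.0325 (Pfkl) to 0.653 (Pgam1) for Pgk1, and from 0.234 (Pgam1) to 0.694 (Tpi1) for Pkm. These values are a description, since all genes of a library share its depth and scaling. The 6 lower enzymes were also grouped by their calls in these same libraries. The r among other genes called lower was not computed, so the pattern is not shown to be particular to the enzymes. For the called enzymes the direction of scatter was also that of the stage difference.

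**Figure D3:**
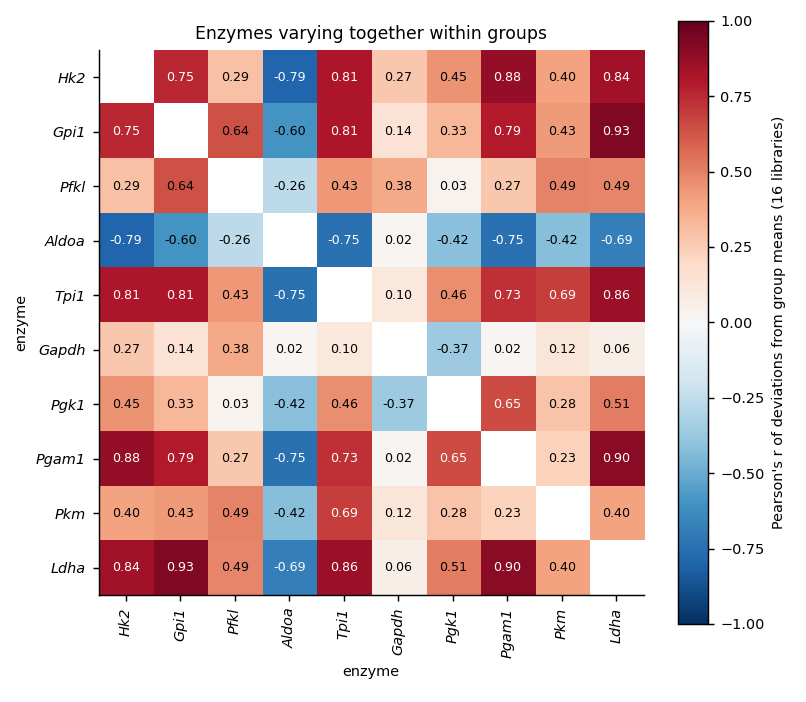
Pearson's r for each pair of enzymes (both axes in pathway order), computed over 16 libraries from the deviations of log2 CPM from the 4 group means; red is positive and blue negative. Hk2, Gpi1, Tpi1, Pgam1 and Ldha form a block of high positive values, and the row of Aldoa is negative against them.

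Most of this scatter lay in the mature cells: 9 of 10 enzymes had the larger coefficient of variation there, and for Ldha it was 15.9% in mature libraries and 2.42% in immature ones. The matching share over all genes was not computed, so this is not shown to be particular to the enzymes. The 4 mature Xbp1flIre1fl libraries fell apart in the same way for several measures. Replicates 2 and 4, with Ccr7 at 6574 and 4988 CPM, had 736 and 762 CPM of Ldha and 376 and 363 CPM of Aldoa. Replicates 1 and 3, with Ccr7 at 11920 and 13420 CPM, had 546 and 469 CPM of Ldha and 396 and 429.5 CPM of Aldoa. Summed B cell markers were at 322 and 709 CPM in replicates 2 and 4 and at 754 and 1068 CPM in replicates 1 and 3, and summed cDC1 markers at 6828 and 6804 CPM and at 5388 and 5110 CPM. The part of these differences in the enzyme values was not tested. Without replicates 2 and 4 the log2 fold change of Ldha was -0.909 and that of Aldoa 0.725. Without replicates 1 and 3, a choice made after the values were seen, they were -0.626 and 0.647, and each of the 7 called enzymes kept its call in both cases. In that second case Ldha was also called between genotypes in mature cells, at 0.334 (edgeR adjusted p = 0.00518), and Gpi1 and Pfkl lost their call within Xbp1flIre1fl (adjusted p = 0.288 and 0.111).

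Isoenzyme ratios within a library do not depend on scaling and were tested by exact permutation of the stage labels within genotype (two-sided, 4900 assignments, smallest possible p 0.000408, adjusted over 4 ratios). Hk2 lost ground against both other hexokinases. The ratio of Hk2 to Hk1 counts, Hk1 being the widely expressed form, was 0.243 to 0.626 in mature (median 0.395) and 0.701 to 1.00 in immature libraries (median 0.869). This is a log2 difference of -1.04 (exact permutation, adjusted p = 0.000816). The ratio of Hk2 to Hk3, the hexokinase of myeloid cells, was 0.111 to 0.191 in mature libraries and 0.213 to 0.309 in immature ones, a log2 difference of -0.68 (exact permutation, adjusted p = 0.000816). Neither pair of ranges overlapped. Both ratios use the same Hk2 counts as the call above, so they are not separate evidence of its fall.

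For phosphofructokinase the ratio of Pfkl to Pfkp, the platelet-type subunit, was 0.352 to 0.504 in mature libraries and 0.391 to 0.535 in immature ones. The ranges overlapped, and the log2 difference of -0.17 was not called (exact permutation, adjusted p = 0.0518). It was -0.070 within Xbp1flIre1fl and -0.28 within Xbp1fl. For lactate dehydrogenase the ratio of Ldha to Ldhb was 257 to 1845 in mature libraries and 733 to 6773 in immature ones, a log2 difference of -1.11 (exact permutation, adjusted p = 0.0229). Ldhb had only 2 to 31 counts per library, and near-identical copies covered 76.8% of its transcript, so its level is uncertain. The call was lost without mature Xbp1flIre1fl replicate 1 (exact permutation, adjusted p = 0.0514) or without immature Xbp1flIre1fl replicate 1 (0.0582).

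**Figure D4:**
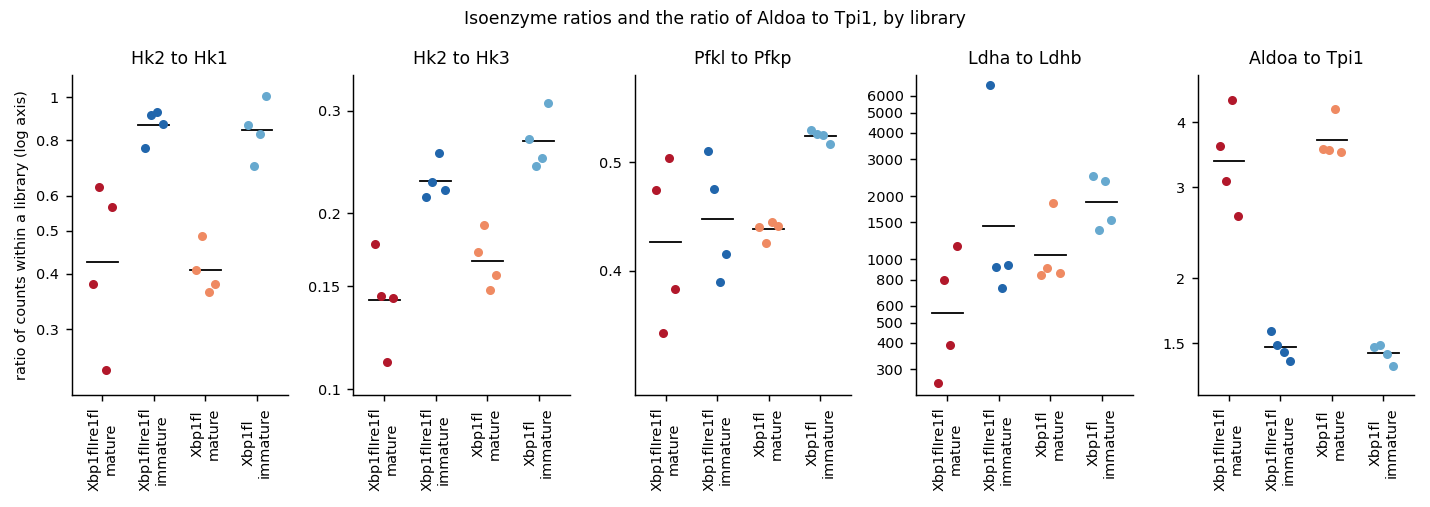
Ratios of counts within each library (vertical log axes) for mature and immature cDC1s of both genotypes; points are libraries and bars are means on the log scale of 4 libraries. The ratio of Hk2 to Hk1 lies at 0.243 to 0.626 in mature libraries and 0.701 to 1.00 in immature ones, the ratio of Aldoa to Tpi1 at 2.64 to 4.42 and 1.36 to 1.58, and the stages overlap for Pfkl to Pfkp and Ldha to Ldhb.

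Other genes of the pathway were taken from lists set beside the 10 enzymes. Of 19 other isoenzymes of glycolytic steps, 12 passed the filter: 3 were higher, 4 lower and 5 not called. Of all genes tested, 33.4% were higher and 34.2% lower. The counts of calls in this list and those below are to be read beside these shares. The large changes were in enolase, the step between Pgam1 and Pkm that the 10 enzymes leave out. Eno2, the enolase best known from neurons, had 27.6, 37.3, 68.6 and 71.2 CPM in mature Xbp1flIre1fl and 55.2, 55.6, 65.7 and 77.3 CPM in mature Xbp1fl libraries, from low to high. Immature libraries held 1 to 9 counts of Eno2 each, 34 in all, at 0.241 ± 0.163 CPM (SD, n = 8). The log2 fold change of 8.0 (edgeR adjusted p = 1.72e-11) therefore rests on few immature counts. Eno3, the muscle enolase, stood at 249 ± 58.2 CPM in mature libraries and 15.2 ± 3.31 CPM in immature ones (SD, n = 8 each), and rose by 4.04 ± 0.17 on the log2 scale (edgeR adjusted p = 5.41e-11). Eno1, the enolase of most tissues, had only 547 counts over all 16 libraries and was not called (-0.24 ± 0.20, edgeR adjusted p = 0.295). Near-identical copies covered 85.6% of its transcript, so its level, and the enolase total, are uncertain.

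Among hexokinases Hk1 was higher in mature cells, at 60.3 ± 6.25 CPM in mature libraries and 50.3 ± 4.09 CPM in immature ones (log2 fold change 0.26 ± 0.061, edgeR adjusted p = 0.00102). Hk3 was at 165 ± 32.5 CPM in mature libraries and 175 ± 15.3 CPM in immature ones and was not called, and the same held for Pfkp, at 223 ± 33.9 CPM in mature libraries and 238 ± 24.2 CPM in immature ones. Adpgk, an ADP-dependent glucokinase, Pfkm, the muscle-type phosphofructokinase subunit, Bpgm and Aldoc fell by 0.51, 0.73, 0.64 and 0.55 on the log2 scale. Pgam2, the muscle mutase, at 2.42 CPM in mature libraries and 2.93 CPM in immature ones, and Ldhb, at 0.876 CPM in mature libraries and 0.721 CPM in immature ones, were not called. With library sizes alone Hk1 lost its call (edgeR adjusted p = 0.617), and Hk3 and Pfkp were called lower (0.0165 and 0.007). Pfkp was also called with upper quartile scaling (0.0401). Without mature Xbp1flIre1fl replicates 2 and 4, Hk3 and Pfkp were called lower at -0.272 and -0.243 (edgeR adjusted p = 0.00036 and 0.00039). Genes on the other strand of Pfkm, Pfkp and Adpgk had counts of their own, Senp1 4321 in mature libraries and 6705 in immature ones, Pitrm1 3976 and 6637, and Bbs4 281 and 404, and reads from these pairs could not be told apart if strand was not used.

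Of 10 transporters of glucose, lactate and pyruvate, 4 were higher, 2 lower and 4 not called. Among all genes 33.4% were higher and 34.2% lower. Slc2a6, a hexose transporter of intracellular vesicles in myeloid cells, stood out at 126 ± 36.1 CPM in mature libraries and 4.79 ± 1.47 CPM in immature ones (SD, n = 8 each; log2 fold change 4.72 ± 0.23, edgeR adjusted p = 2.87e-10). Slc16a3, the lactate exporter MCT4, rose to 10.6 ± 1.39 CPM in mature libraries, against 6.86 ± 0.80 CPM in immature ones. Slc2a1, which encodes the main glucose transporter GLUT1 and was added after its values were seen, was at 26.3 ± 4.61 CPM in mature libraries and 30.7 ± 4.80 CPM in immature ones (log2 fold change -0.22 ± 0.097, edgeR adjusted p = 0.0554) and was not called. That non-call rests on the settings: Slc2a1 was called lower with upper quartile scaling (0.00584), with library sizes alone (0.00136), with no filter (0.0426), with a block for paired libraries (0.0456), without replicates 2 and 4 of mature Xbp1flIre1fl (0.0125), and without any one of 4 single libraries (0.00849 to 0.0395). Slc2a3, for GLUT3, was called higher at 0.31 ± 0.13 (edgeR adjusted p = 0.0384). It was not called with upper quartile scaling (edgeR adjusted p = 0.189), with library sizes alone (0.535) or with no filter (0.0526). The call was also lost without any one of 9 libraries (0.0532 to 0.111). The same held without replicates 2 and 4 (0.054) or 1 and 3 (0.0837) of mature Xbp1flIre1fl. Slc16a1 and Mpc2 fell by 0.33 and 0.17 on the log2 scale. Slc16a1 had no call without immature Xbp1fl replicate 1 (edgeR adjusted p = 0.0538) or without mature Xbp1flIre1fl replicates 2 and 4 (0.0761). Mpc1, the other pyruvate carrier gene of the list, was called higher with TMM scaling, at 0.21 ± 0.050 (edgeR adjusted p = 0.00126). Mpc1 and Mpc2 thus went opposite ways with TMM scaling. Library sizes alone moved the median of all genes to -0.23, a shift about the size of the Mpc1 rise.

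Of 10 flux regulators that passed the filter, 3 were higher, 3 lower and 4 not called. These counts are near the shares over all genes, 33.4% higher and 34.2% lower. Pfkfb3, whose enzyme makes the activator of phosphofructokinase, was at 979 ± 248 CPM in mature libraries and 68.4 ± 7.33 CPM in immature ones, a log2 fold change of 3.84 ± 0.16 (edgeR adjusted p = 2.73e-11). In mature Xbp1flIre1fl libraries Pfkfb3 had 1289.8, 675, 1219 and 644 CPM, so that replicates 2 and 4 were low, as for Ccr7. Pdp2, a phosphatase that switches pyruvate dehydrogenase on, rose by 0.78, and Pdk1, a kinase that switches it off, fell by 0.73 on the log2 scale. Pdp1, the other phosphatase of this kind in the list, fell by 0.43, so that Pdp1 and Pdp2 went opposite ways. The other Pdk kinases that passed the filter were not called. Tigar fell by 0.27, and lost its call without any one of 7 libraries (edgeR adjusted p 0.0542 to 0.083). The same held without mature Xbp1flIre1fl replicates 1 and 3 (edgeR adjusted p = 0.153).

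Pathways next to glycolysis had calls in 1 direction with few exceptions. Of 5 pyruvate dehydrogenase subunits 4 were lower, among them Dlat, Pdhb and Pdha1 at -0.42, -0.35 and -0.22, and 0 were higher. Of 8 pentose phosphate genes 5 were lower and 0 higher, with Taldo1 at 792 ± 118 CPM in mature libraries and 1202 ± 26.3 CPM in immature ones and H6pd and Tkt at -0.41 and -0.38. Of 16 genes of the tricarboxylic acid cycle 11 were lower and 0 higher (median log2 fold change -0.305), led by Idh3a at -0.78, Fh1 at -0.73 and Suclg2 at -0.43. In the gluconeogenesis list 3 genes passed the filter and 2, Pck2 at -0.58 and G6pc3 at -0.43, were lower. Of 8 genes of glycogen metabolism 4 were lower, with Gbe1, Pygb and Pgm1 at -0.42, -0.22 and -0.20, and Pygl, the glycogen phosphorylase that frees glucose units, was higher, at 74.6 ± 20.7 CPM in mature libraries and 6.07 ± 1.63 CPM in immature ones. Over all genes 34.2% were lower, as given above.

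Transcription factors known to drive glycolytic genes were measured in the same libraries. Of 7 that passed the filter 3 were higher, 2 lower and 2 not called, with 33.4% of all genes higher and 34.2% lower. Hif1a, the hypoxia-inducible factor, was at 178 ± 8.26 CPM in mature libraries and 146 ± 9.45 CPM in immature ones (log2 fold change 0.29 ± 0.047). Mlxip rose by 0.40 and Mlx fell by 0.24; their proteins pair to sense sugar phosphates. Myc was at 46.1 ± 17.7 CPM in mature libraries and 28.6 ± 4.51 CPM in immature ones, while Mycl, the Myc family member prominent in dendritic cells, fell to 408 ± 85.6 CPM in mature libraries, against 711 ± 65.6 CPM in immature ones. With library sizes alone Hif1a and Myc were not called (edgeR adjusted p = 0.301 and 0.0535), and Myc was not without mature Xbp1flIre1fl replicates 1 and 3 (0.09). Of 13 other hypoxia targets that passed the filter 4 were higher, 7 lower and 2 not called. These counts, too, stand beside 33.4% and 34.2% of all genes. Ndrg1, Vegfa and Mxi1 changed by 1.58, 1.09 and 0.48, the last not called with library sizes alone (edgeR adjusted p = 0.133), and Egln1, Higd1a and P4ha1 by -0.46, -0.36 and -0.33. HIF1A protein is regulated mainly by its stability, which RNA counts do not show.

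**Figure D5:**
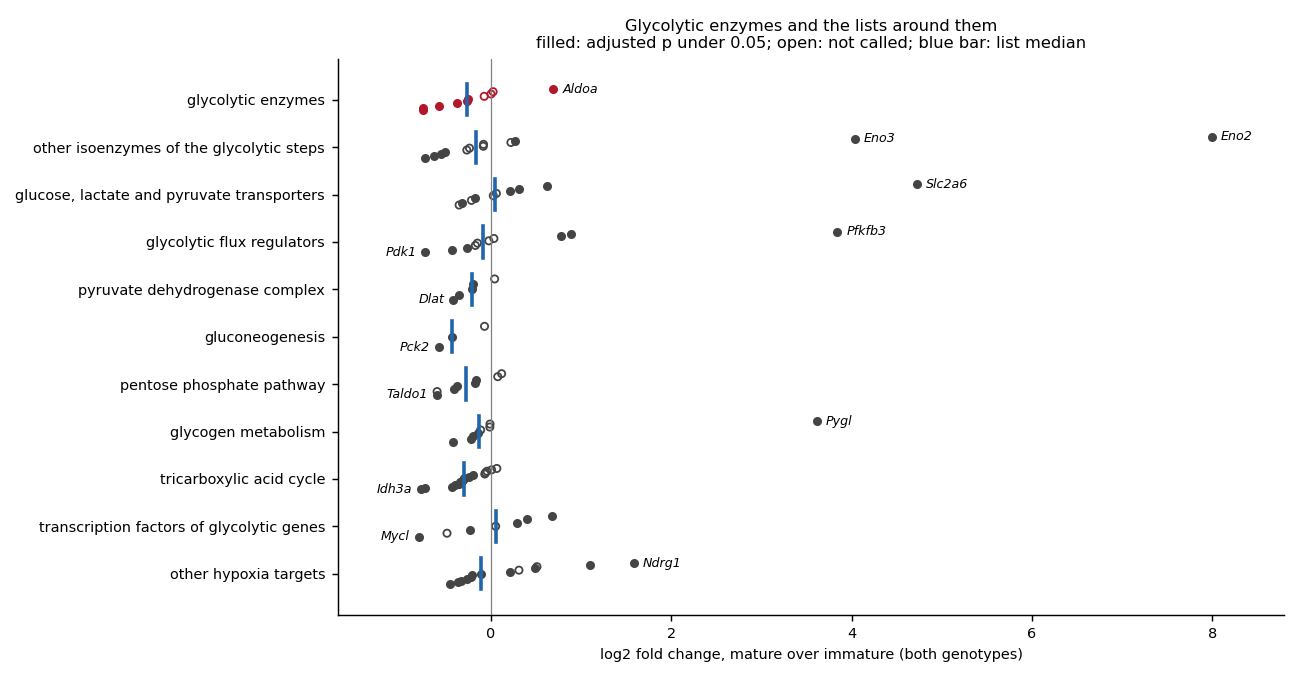
Log2 fold change of mature over immature cDC1s (horizontal axis) for each gene that passed the filter in the 10 enzymes (red) and in 10 neighbouring lists (grey), 1 row per list; filled points have an edgeR adjusted p under 0.05 and blue bars are list medians. Eno2, Slc2a6, Eno3, Pfkfb3 and Pygl lie at 3.61 or above, while the tricarboxylic acid cycle has no filled point right of 0.

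Promoters of the 10 enzymes were read from a RefSeq table of 300-base windows (GRCm38.p6, 250 bases before to 50 after each start), which held 14 windows for the 10 genes. They were searched on both strands for the core of the hypoxia response element, which is ACGTG or, in its other form, GCGTG. The E-box of MYC family factors, CACGTG, contains the first form and was searched too. Either form of the core was in 71.4% of the enzymes' windows and in 43.8% of all 32851 windows, and the form ACGTG in 57.1% and 19.6%. The E-box was in 1 of 14 windows, the Ldha window shown here, or 7.14%, against 7.15% of all windows. Counted by gene, the core was in at least 1 window for 8 of 10 enzymes, or 80%, and for 46.7% of all 27025 genes. The count by window holds 1 Aldoa site in each of 2 overlapping windows. The core was not in the windows of Gpi1 and Tpi1, both lower in mature cells. The 250 bases before the start are shown for enzymes that fell (Hk2, Tpi1, Ldha), rose (Aldoa) or were not called (Pgk1). Capitals mark ACGTG, also where it lies on the other strand and so reads CACGT:
Hk2 chr6:82774455-82774704, minus strand: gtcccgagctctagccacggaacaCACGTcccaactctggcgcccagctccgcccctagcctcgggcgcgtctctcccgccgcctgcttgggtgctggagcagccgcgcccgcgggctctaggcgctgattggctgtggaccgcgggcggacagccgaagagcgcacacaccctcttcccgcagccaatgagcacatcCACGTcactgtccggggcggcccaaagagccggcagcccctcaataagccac
Aldoa chr7:126799255-126799504, minus strand: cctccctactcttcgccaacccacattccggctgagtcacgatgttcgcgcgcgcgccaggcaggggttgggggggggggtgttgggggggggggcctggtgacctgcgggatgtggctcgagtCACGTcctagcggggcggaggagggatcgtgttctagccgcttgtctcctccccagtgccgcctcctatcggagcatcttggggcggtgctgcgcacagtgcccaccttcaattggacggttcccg
Tpi1 chr6:124814159-124814408, minus strand: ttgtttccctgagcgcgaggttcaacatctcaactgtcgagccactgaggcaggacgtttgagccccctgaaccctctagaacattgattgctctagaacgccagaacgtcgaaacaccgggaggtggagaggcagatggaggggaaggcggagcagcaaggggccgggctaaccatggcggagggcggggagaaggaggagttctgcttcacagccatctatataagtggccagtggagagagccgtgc
Pgk1 chrX:106186850-106187099, plus strand: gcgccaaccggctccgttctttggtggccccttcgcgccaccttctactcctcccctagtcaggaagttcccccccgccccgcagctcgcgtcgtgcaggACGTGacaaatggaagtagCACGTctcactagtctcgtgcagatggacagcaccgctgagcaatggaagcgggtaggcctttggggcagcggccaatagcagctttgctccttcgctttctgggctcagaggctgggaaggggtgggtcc
Ldha chr7:46845554-46845803, plus strand: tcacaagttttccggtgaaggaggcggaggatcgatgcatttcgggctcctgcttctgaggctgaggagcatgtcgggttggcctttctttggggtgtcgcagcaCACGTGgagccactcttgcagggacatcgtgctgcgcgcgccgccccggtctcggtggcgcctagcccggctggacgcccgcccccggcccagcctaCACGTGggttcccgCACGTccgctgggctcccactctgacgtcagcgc

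Ldha had 5 matches of ACGTG in the printed stretch, counted on both strands, and 2 of GCGTG in the 50 bases after the start. Each of its 2 E-boxes reads the same on both strands and so was counted once per strand. The other Ldha window of the table, at chr7:46846832-46847131, had no ACGTG and 2 of GCGTG. Bases after the start of that other window were found in an annotated Ldha transcript, and those of the printed window were not, so which start these cells use was not tested. In the printed stretches Hk2 and Pgk1 had 2 matches of ACGTG each and Aldoa 1, and that of Tpi1 had none. Another Aldoa window, at chr7:126800398-126800697, had no match of either form. In the printed stretches, matches were thus present in enzymes that fell, rose and were not called. A match is a string of letters and not a bound site, and the table gives more than 1 start for Aldoa, Ldha and Pkm.

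Over the 16 libraries, the genes whose log2 CPM ran most nearly parallel to Aldoa were Gfpt1, Arpin and Rftn1, each with Pearson's r of 0.992. Among those most nearly parallel to Tpi1 were Ipo5, at 0.985, and Dkc1, at 0.983. Gfpt1 encodes the enzyme that diverts fructose 6-phosphate into hexosamine synthesis, Arpin an inhibitor of the Arp2/3 complex, Ipo5 a nuclear import receptor and Dkc1 a pseudouridine synthase. Since both stages enter, each r mainly ranks genes by the stage difference, and it is given without a test.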

How the data were processed

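Bulk RNA-seq of 16 libraries was used, 4 in each of 4 groups. The authors deposited raw counts per gene, and a log2 table of 11843 genes. Per the submitters' processing notes, the tools were TopHat2 2.1.0 with the mm10 build, limma 3.42.2, SAMtools 0.1.19, Trimmomatic 0.35 and, for quality, FastQC 0.11.4. The counter, the annotation, strandedness and the handling of reads shared by several genes are not given in the sources used here. Over 10373 genes the deposited log2 values and log2 CPM of the counts differed by a fixed amount in each library (SD of the difference at most 0.0255). They served only in an alternative fit with limma 3.58.1.

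The counts were fitted in R 4.3.3 with edgeR 4.0.16: filterByExpr (minimum count 10), TMM scaling, a robust quasi-likelihood fit of the 4 groups with 12 residual degrees of freedom, and Benjamini-Hochberg adjustment over 11978 genes. The threshold for a call was an adjusted p under 0.05. The SE was taken from the fold change and the F statistic. Mature and immature libraries of one genotype and number deviated together (r 0.29 to 0.604 in 8 of 8 pairs, each best with its own number, a pairing seen in the data and not given in the labels), so a block for each genotype and number was added as an alternative after the data were seen. Ratios of counts had 0.5 count added to each gene. Means ± SD are over TMM-scaled CPM. Libraries held 13948232 to 17000763 counts, so 3 counts equal 0.161 to 0.231 CPM, which covers counting error only.

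The members and the gene lists were chosen with earlier results of these data known. All 10 enzymes are named; of each other pathway list, up to 3 called genes with the largest change in each direction and a mean of at least 5 CPM in the higher stage; every other isoenzyme that passed the filter; the most abundant gene of each marker list; the 3 genes most like Aldoa and Tpi1, leaving out predicted and clone names; and Ccr7. One gene that this rule names is not reported here. Slc2a1 and Mpc1 were added to these after their values were seen. Near copies were searched with blastn 2.17.0 against GENCODE transcripts of mm10, which also gave positions and transcript lengths. Alternatives were RLE, upper quartile and library size scaling, no filter, a fit that is not robust, DESeq2 1.42.0, limma, the replicate number as a block, across and within genotypes, and leaving out libraries.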

Additional observations from a re-analysis of the deposited data

Results flagged for a closer look

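Within the 4 groups of 4 libraries, 64 sets of values were searched for a library far from the other 3, by a gap above Dixon's critical value. Chance gives such a gap in about 1 in 20 sets, and 4 were found. Hk2 stood at 35.3 CPM in immature Xbp1flIre1fl replicate 1, against 43.2 to 44.1 CPM in the other libraries of that group. The ratio of Ldha to Ldhb counts was 6773 in the same library, which had 2 Ldhb counts, against 733 to 936 in the others. That ratio was 1845 in mature Xbp1fl replicate 3, which had 4 Ldhb counts, against 844 to 909 in the others. In this library the ratio of Aldoa to Tpi1 counts was 4.24, against 3.50 to 3.55 in the others, while Ccr7 was at 11580 CPM, the highest of the mature Xbp1fl libraries.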

How the results depend on the processing

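Of 270 recomputed log2 fold changes of the 10 enzymes between stages, 264 kept their side of the threshold, and no called value among them changed sign. The exceptions were upper quartile scaling, with Gapdh at -0.197, Pgk1 at -0.0977 (opposite sign) and Pkm at -0.121, and library sizes only, at -0.301, -0.201 (opposite sign) and -0.224. Uncalled values near 0 also changed sign. Pkm was at -0.00053 with TMM and 0.0138 with RLE scaling. Pgk1 was at 0.023 with all libraries and -0.0011 without mature Xbp1flIre1fl replicates 2 and 4. Of all genes, 3995 were higher and 4100 lower with TMM, 3213 and 5237 with upper quartile scaling, and 2716 and 6091 with library sizes only, where 11 in place of 18 genes of the neighbouring lists were higher. Leaving out each library gave 7765 to 8263 genes called, and always 1 enzyme higher and 6 lower. Without 1 library the log2 difference of Pfkl to Pfkp was -0.2154 to -0.129, called without any of 6 libraries (exact permutation, adjusted p = 0.0234 to 0.04939), and that of Ldha to Ldhb -1.287 to -0.7374, not called without 2. Without mature Xbp1flIre1fl replicates 1 and 3, chosen after seeing the data, Pfkl to Pfkp was called at -0.275, Ldha to Ldhb was not at -0.7117, and 1 enzyme was called between genotypes in mature cells. With the replicate number as a block across genotypes 8242 genes were called, and with a block for each genotype and number 8347, against 8095. The second block follows the pairing of mature with immature libraries; 7 enzymes stayed called between the stages and within each genotype, and 0 for the interaction. Permuting stage within these pairs left each ratio on its side of the threshold (exact permutation, adjusted p = 0.01562 for both Hk2 ratios, 0.03125 for Ldha to Ldhb and 0.09375 for Pfkl to Pfkp). Across genotypes 7 of 16 same-numbered pairs had r above 0.1, so the number was not taken to pair genotypes. The share of counts without Rn45s and mitochondrial genes left out only Rn45s, since the table lists no mitochondrially encoded gene under the mt- prefix. Few counts limit Ldhb, Eno1 and immature Eno2 most. Near-identical copies covered 76.8% of the Ldhb transcript and 85.6% of that of Eno1, and the part of shared reads in their low counts was not tested.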
